A study of Mus musculus with 22 samples.

Results

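A set of 6 red cell genes was followed through mouse development and in embryos lacking Rlf, a zinc finger protein that modifies epigenetic silencing. The genes were *Slc4a1*, *Epb4.2*, *Rhag*, *Ermap*, *Ank1* and *Epor*, chosen by name for their place in the red cell membrane or as the receptor of erythropoietin. They are 6 of 22342 annotated protein-coding genes, and all 6 were among the 14183 genes with enough counts to be tested for RNA. DNA methylation was measured by whole genome bisulphite sequencing (WGBS), which reads a methylated cytosine as unconverted and an unmethylated cytosine as converted. The 12 WGBS libraries came from whole embryos at E10.5 (E for days of embryonic development) and from livers taken at E14.5 and at E18.5, with 2 wild-type (*Rlf* +/+) and 2 homozygous (*Rlf* MommeD28/MommeD28) samples at each of 3 stages. RNA-seq covered E14.5 livers only, with 3 wild-type and 3 homozygous samples, of which replicates 1 and 2 were male and replicate 3 female. MommeD28 is a null allele from an ENU (N-ethyl-N-nitrosourea) mutagenesis screen. All mice were FVB and, in both genotypes, homozygous for a GFP transgene in many copies, driven by the promoter of the human alpha-globin gene with its HS-40 enhancer. Embryos came from matings of heterozygous parents. The E10.5 WGBS samples were male and the E18.5 samples female, while at E14.5 replicate 1 was male and replicate 2 female in both genotypes. Tissue and stage therefore changed together between E10.5 and E14.5, and their parts cannot be told apart. According to the study, erythroblasts were the larger part of liver cells at E14.5 and hepatoblasts at E18.5. Cell composition and stage therefore also changed together between E14.5 and E18.5, and their parts cannot be told apart either. Each step between stages can also be read within 1 sex.

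The red cell membrane is a lipid bilayer tied to a spectrin skeleton. Band 3, the anion exchanger encoded by *Slc4a1*, is its most abundant integral protein and carries bicarbonate and chloride across the membrane. Protein 4.2 (*Epb4.2*) and ankyrin (*Ank1*) link band 3 to spectrin, and mutations in any of these 3 genes can cause hereditary spherocytosis. *Rhag* encodes the Rh-associated glycoprotein, the core of the Rh complex, and *Ermap* an immunoglobulin-like protein of the erythroid membrane that carries the Scianna blood group. *Epor* encodes the erythropoietin receptor, through which erythropoietin keeps erythroid progenitors alive and dividing. From about mid-gestation until shortly before birth the fetal liver is the main site of red cell production. At E14.5 it holds many erythroblasts beside hepatoblasts and other blood cells.

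The 6 genes lie on 6 chromosomes of the mm9 assembly. *Slc4a1* (ENSMUSG00000006574) is at chr11:102210138-102227517, *Epb4.2* (ENSMUSG00000023216) at chr2:120843627-120862808 and *Epor* (ENSMUSG00000006235) at chr9:21763343-21768020. *Rhag* (ENSMUSG00000023926) is at chr17:40948075-40977703, *Ank1* (ENSMUSG00000031543) at chr8:24085316-24260969 and *Ermap* (ENSMUSG00000028644) at chr4:118848062-118862616. *Ermap* is on the same chromosome as *Rlf*, 1.96 Mb away, so alleles near it may be inherited together with the *Rlf* mutation. Their protein-coding transcripts begin at 12 annotated starts, 1 each for *Slc4a1*, *Epb4.2*, *Rhag* and *Epor*, 2 for *Ermap* and 6 for *Ank1*, numbered here along the direction of transcription. The protein-coding start of *Slc4a1* is at position 102226594, inside the annotated gene.

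The stretches around 6 of these starts, 1 for each gene, are shown so that the CpGs and motifs described here can be seen. For *Ermap* and *Ank1*, which have several starts, the start with the deepest fall in methylation was taken. Each runs 5′ to 3′ on the strand of the gene, from 250 bases before the start through the first 50 bases of the transcript, with every CpG in capitals. The first 4 belong to starts that lost methylation between the E10.5 embryo and the E14.5 liver, *Epor* was already low in the embryo, and *Rhag* has a single CpG in this stretch. The *Slc4a1* stretch is chr11:102226545-102226844 (minus strand), that of *Epb4.2* chr2:120862759-120863058 (minus strand) and that of *Ermap* start 1 chr4:118862567-118862866 (minus strand). That of *Ank1* start 2 is chr8:24145321-24145620 (plus strand), that of *Epor* chr9:21767971-21768270 (minus strand) and that of *Rhag* chr17:40947825-40948124 (plus strand).
Slc4a1: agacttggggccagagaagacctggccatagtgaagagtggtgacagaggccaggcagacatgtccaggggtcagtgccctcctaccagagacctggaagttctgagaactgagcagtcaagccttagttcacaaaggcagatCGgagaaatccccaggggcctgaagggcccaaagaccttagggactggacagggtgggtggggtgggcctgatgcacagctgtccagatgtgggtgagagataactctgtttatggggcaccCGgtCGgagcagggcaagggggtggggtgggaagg
Epb4.2: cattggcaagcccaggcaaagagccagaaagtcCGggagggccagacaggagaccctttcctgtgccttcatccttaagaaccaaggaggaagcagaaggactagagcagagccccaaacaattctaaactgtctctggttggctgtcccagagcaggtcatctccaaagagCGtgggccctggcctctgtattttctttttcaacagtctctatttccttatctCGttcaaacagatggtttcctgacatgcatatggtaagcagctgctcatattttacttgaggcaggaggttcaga
Ermap start 1: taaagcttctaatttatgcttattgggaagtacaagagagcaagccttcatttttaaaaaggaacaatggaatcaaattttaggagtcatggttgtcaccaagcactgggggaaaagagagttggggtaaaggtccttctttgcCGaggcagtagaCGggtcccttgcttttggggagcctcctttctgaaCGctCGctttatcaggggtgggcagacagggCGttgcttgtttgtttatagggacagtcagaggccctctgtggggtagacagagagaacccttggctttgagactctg
Ank1 start 2: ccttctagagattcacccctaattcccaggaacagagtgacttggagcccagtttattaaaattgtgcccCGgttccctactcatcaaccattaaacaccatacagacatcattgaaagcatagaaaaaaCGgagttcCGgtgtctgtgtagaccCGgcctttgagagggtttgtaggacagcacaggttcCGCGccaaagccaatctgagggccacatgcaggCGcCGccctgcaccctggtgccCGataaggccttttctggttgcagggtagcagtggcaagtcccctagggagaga
Epor: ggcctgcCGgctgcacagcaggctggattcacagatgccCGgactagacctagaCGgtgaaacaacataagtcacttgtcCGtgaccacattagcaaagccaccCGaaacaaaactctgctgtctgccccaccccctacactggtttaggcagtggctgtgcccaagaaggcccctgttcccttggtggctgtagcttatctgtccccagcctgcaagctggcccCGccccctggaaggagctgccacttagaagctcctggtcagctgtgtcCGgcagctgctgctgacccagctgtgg
Rhag: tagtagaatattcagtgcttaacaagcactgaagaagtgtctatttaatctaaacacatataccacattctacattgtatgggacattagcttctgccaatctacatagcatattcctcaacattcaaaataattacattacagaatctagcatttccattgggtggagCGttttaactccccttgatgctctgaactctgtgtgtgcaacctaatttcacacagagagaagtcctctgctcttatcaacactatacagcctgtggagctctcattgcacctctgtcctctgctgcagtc

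Of these stretches, 5 hold fewer CpGs than the median promoter and that of *Ank1* start 2 holds more. There were 3 in *Slc4a1*, 3 in *Epb4.2*, 5 in *Ermap* start 1, 9 in *Ank1* start 2, 7 in *Epor* and 1 in *Rhag*, against a median of 8 over 30295 promoter stretches of the same length. *Ank1* start 1, at the far 5′ end of the gene, differed from the others with 52 CpGs and 84.7% G and C. The letters AGATAA, 1 form of the motif read by the erythroid factor GATA1, were sought on both strands. They stood once each in *Slc4a1*, *Epb4.2* and *Epor*, and in 10.99% of all promoter stretches. Other forms were not counted. The printed stretches of *Ermap* start 1 and *Rhag* hold TTATCA, which reads TGATAA on the other strand. The letters CCNCNCCC, a CACC-type motif that KLF1 can bind and that cannot overlap AGATAA, stood 3 times in *Slc4a1*, 4 times in *Epor* and 4 times at *Ank1* start 1, and in 49.8% of all stretches.

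Methylation was expressed as the percentage of reads unconverted over all CpGs within 1 kb of a start, using CpGs that every one of the 12 libraries covered with 6 or more reads and windows with at least 5 such CpGs. Of the 12 starts, 11 could be tested, because only 1 CpG near the *Rhag* start passed. The libraries held 319816606 to 710948789 CpG reads with unconverted lambda DNA, the spiked-in unmethylated control, at 0.0412% to 0.0775%. Over all CpGs, 70.7% to 74.0% of reads were methylated at E10.5, 56.4% to 60.3% at E14.5 and 61.4% to 65.5% at E18.5, so a fall in liver was general and each gene is read against it.

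Methylation around the starts of *Slc4a1*, *Epb4.2*, both starts of *Ermap* and start 2 of *Ank1* fell by 37.2 to 56.9 percentage points between the E10.5 embryo and the E14.5 liver. It then rose by 9.25 to 22.97 points by E18.5, and remained below the level of the embryo. Among male libraries alone, 4 embryos and 2 E14.5 livers, these windows fell by 38.7 to 55.7 points, and among females, 2 E14.5 and 4 E18.5 livers, they rose by 7.71 to 24.2 points, without overlap between stages (means, with no test). Here and below, the share of all windows or bodies without overlap between stages was not computed. The library-wide levels given above did not overlap between stages either. By edgeR's quasi-likelihood test on methylated and unmethylated counts, 9 of 11 member windows differed between E10.5 and E14.5 at an adjusted p under 0.05, 7 lower and 2 higher at E14.5. Over the genome 71% of 27157 windows passed, 51.9% lower and 19.1% higher, so the number of calls among the members was near the background and the size of the change is the measure to read. The median difference of all windows was -1.62 points, and it was -17.4 points among the 11315 windows above 50% methylation at E10.5. Of those 11315, 5% fell by 34.4 points or more. The ranks given below are among all windows, of which 14229 were under 20% at E10.5 and could not fall so far. Between E14.5 and E18.5, 7 of 11 member windows differed, 6 higher and 1 lower, against 20.3% of all windows, 15% higher and 5.37% lower. The median over all windows was 0.25 points and it was 5.10 points among those above 50% at E10.5. Of the latter, 5% rose by 11.3 points or more.

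The window of *Slc4a1*, the band 3 gene, held 27 CpGs. In the E10.5 embryo its methylation was 70.2% and 71.0% in the wild-type and 75.1% and 80.1% in the homozygous libraries. In E14.5 liver it was 29.9%, 34.3%, 32.4% and 33.6%, and in E18.5 liver 42.2%, 44.6%, 53.0% and 41.3%, in the same order. The 3 stages did not overlap in any library. The mean went from 74.1% ± 4.57 (SD, n = 4) to 32.6% ± 1.93 and then to 45.3% ± 5.36. The first difference was -41.5 points (adjusted p = 1.64e-08), lower than all but 1.06% of windows, and the second was 12.7 points (adjusted p = 0.0114). The second was not called in wild-type libraries alone (11.3 points, adjusted p = 0.134) or in homozygous ones alone (14.1 points, adjusted p = 0.0730).

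*Epb4.2*, whose product protein 4.2 holds band 3 to ankyrin, showed the same course over 13 CpGs. Its E10.5 values were 67.3% and 68.7% in wild-type and 70.6% and 62.4% in homozygous embryos. Its E14.5 values were 17.6%, 25.6%, 26.1% and 24.7% and its E18.5 values 37.3%, 38.4%, 38.4% and 32.5%, wild-type libraries first. No library of one stage reached the range of another. The differences were -43.7 points (adjusted p = 2.20e-08) and 13.1 points (adjusted p = 0.00922). The second was not called in wild-type libraries alone (16.2 points, adjusted p = 0.0717) or in homozygous ones alone (10.04 points, adjusted p = 0.124).

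The windows of *Ermap* fell further than those of the other genes. Around its start 1, over 24 CpGs, methylation in the embryo was 74.8% and 70.4% in wild-type and 69.3% and 74.0% in homozygous libraries. In E14.5 liver it was 14.8%, 14.1%, 18.1% and 13.96%, and in E18.5 liver 35.5%, 33.9%, 47.1% and 36.3%. The fall of 56.9 points (adjusted p = 1.02e-09) exceeded that of all but 0.180% of windows, and the later rise of 22.97 points (adjusted p = 0.000149) was above that of 99.97% of windows. Start 2, which shares CpGs with start 1, went from 69.1% ± 3.29 (SD, n = 4) to 18.6% ± 2.90 and 34.1% ± 2.72. No libraries of different stages overlapped at either start.

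*Ank1* spans 175654 bp, and its 6 starts did not behave alike. Ankyrin is made from different first exons in different tissues. Around start 2, over 33 CpGs, methylation was 58.4% and 59.3% in wild-type and 62.0% and 59.3% in homozygous E10.5 embryos. It was 20.9%, 22.6%, 21.1% and 25.6% in E14.5 liver and 31.2%, 32.6%, 33.4% and 30.1% in E18.5 liver. These groups did not overlap, with differences of -37.2 points (adjusted p = 5.60e-09) and 9.25 points (adjusted p = 0.00878). The rise at start 2 was not called in wild-type libraries alone (10.1 points, adjusted p = 0.0905) or in homozygous ones alone (8.40 points, adjusted p = 0.0883). Start 1, a CpG-rich stretch with 172 CpGs, lay at 0.54% ± 0.186, 2.26% ± 0.552 and 1.51% ± 0.145 (SD, n = 4) at the 3 stages. Both of its steps passed (adjusted p = 4.19e-07 and 0.0410), and the second stayed called when 4 of the 12 libraries were left out in turn, but not for the other 8, and in 6 of 11 other settings, with losses by limma (adjusted p = 0.0952) and within 500 bp (adjusted p = 0.253) among the rest. Start 3 was also low, at 11.5%, 17.4% and 15.3%, and its 5.94 points of gain at E14.5 passed the test (adjusted p = 0.00132). That gain was 0.87 points within 500 bp of the start (adjusted p = 0.613) and 1.63 points as the mean of the CpGs' own percentages, and it was not called in wild-type libraries alone (4.62 points, adjusted p = 0.0530). Starts 4, 5 and 6 lay between 73.2% and 90.9% at every stage. Of these, start 4 alone passed between E10.5 and E14.5 in windows of 1 kb, by -4.48 points (adjusted p = 0.0299). Among male libraries that difference was -2.42 points with overlap between the stages, and within 500 bp of that start the difference was 2.52 points in the other direction. The call held in 7 of 11 other settings and when 8 of the 12 libraries were left out in turn, and it was lost in wild-type libraries alone (adjusted p = 0.488) and with a minimum of 1 read (adjusted p = 0.0752). Starts 5 and 6 gave -2.22 points (adjusted p = 0.0775) and -1.76 points (adjusted p = 0.341). Start 5 was called in 2 of 10 other settings, at -9.17 points within 2 kb (adjusted p = 8.97e-08) and at -3.04 points with E14.5 counts thinned (adjusted p = 0.0348), and when 2 of the 12 libraries were left out in turn. Start 6 was called within 500 bp, at -6.43 points (adjusted p = 0.0293).

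The window of *Epor*, the only receptor of the set, was poorly methylated at all stages. Over 42 CpGs it was 8.8%, 10.4%, 9.4% and 8.6% at E10.5, 6.2%, 5.7%, 5.3% and 5.7% at E14.5 and 7.9%, 6.1%, 9.2% and 8.3% at E18.5, wild-type libraries first. The fall of 3.60 points passed the test (adjusted p = 0.000271). Its size depended on the stretch taken, with 14.6 points within 500 bp, 1.67 points within 2 kb and 7.34 points as the mean of the CpGs' own percentages, all in the same direction. The rise of 2.15 points also passed (adjusted p = 0.0362), although 1 E18.5 library lay within the E14.5 range and the call held in 4 of 11 other settings and when 6 of the 12 libraries were left out in turn. In *Rhag*, whose window could not be tested, the single CpG that passed, 930 bases before the start, was at 80.2% ± 12.3, 81.5% ± 6.71 and 77.1% ± 7.13 (SD, n = 4).

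**Figure D1:**
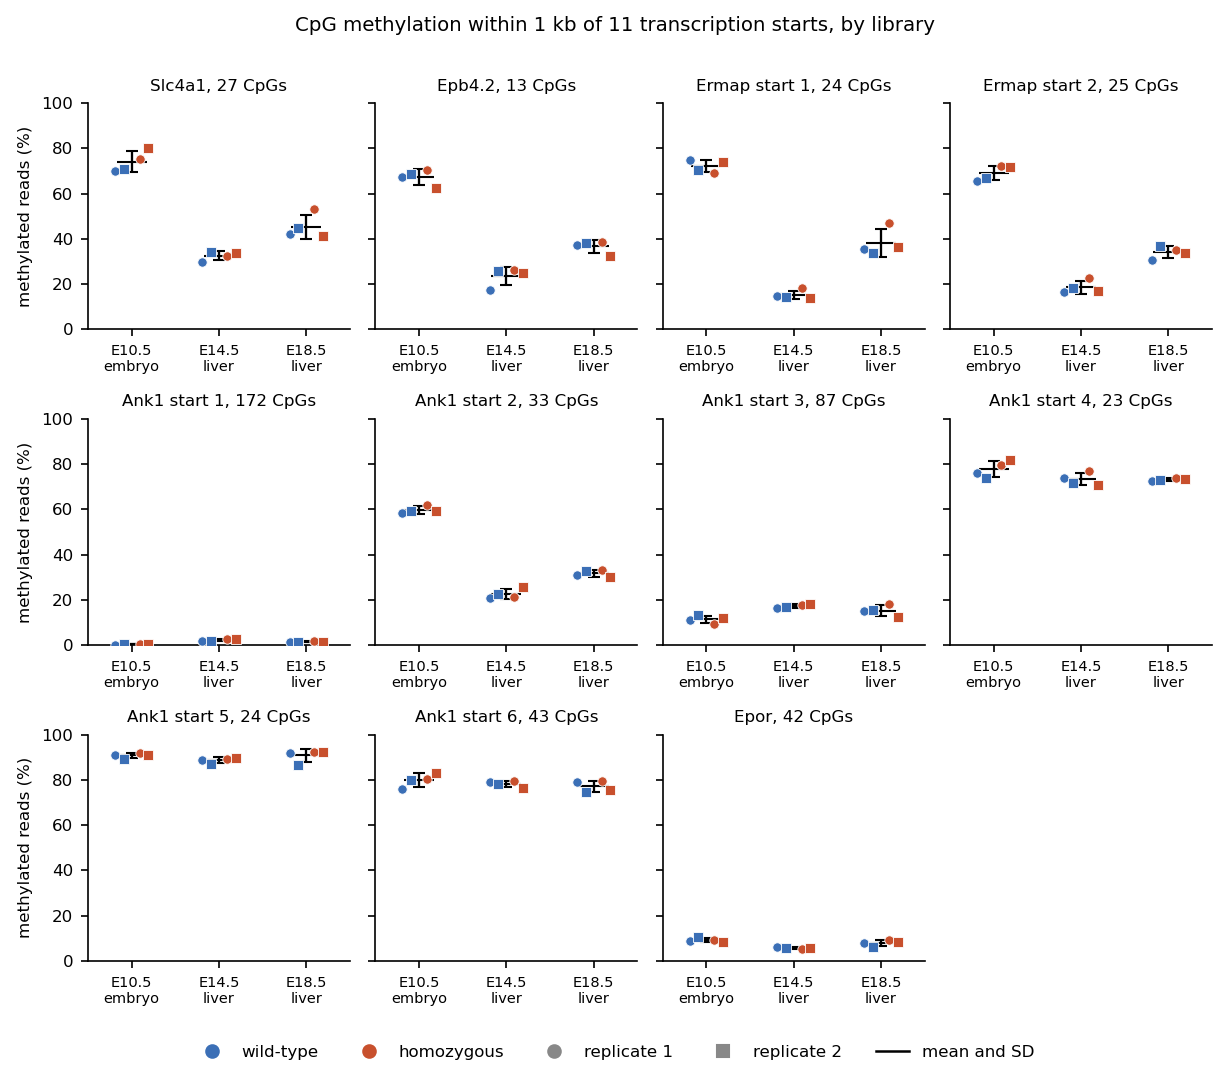
Percentage of methylated CpG reads (y axis) within 1 kb of 11 transcription starts in each of the 12 libraries, by stage (x axis), with wild-type in blue, homozygous in orange, and the mean and SD of the 4 libraries of a stage in black. The windows of Slc4a1, Epb4.2, Ermap and Ank1 start 2 dropped from 59.7% to 74.1% in the embryo to 15.2% to 32.6% in E14.5 liver, Ank1 start 1 and Epor stayed under 11%, and Ank1 starts 4 to 6 stayed above 70%.

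At the level of single CpGs, every CpG that passed in the windows of *Slc4a1*, *Epb4.2*, *Ermap* and *Ank1* start 2 had a lower mean at E14.5 than at E10.5. The 3 CpGs in capitals in the *Slc4a1* stretch, at -107, 15 and 19 bases from the start, were at 79.3%, 76.5% and 85.6% in the embryo and at 22.9%, 13.8% and 18.4% in E14.5 liver (means of 4 libraries). By E18.5 they stood at 44.9%, 34.4% and 37.7%. In *Epb4.2* the CpGs at -217, -78 and -25 were lower in E14.5 liver, going from 82.6%, 70.7% and 52.3% to 21.2%, 7.42% and 7.34%. The one nearest the start was then still at 9.29% at E18.5, while the farthest was at 37.7%. Of the CpGs within 1 kb, 25 of 27 in *Slc4a1*, 12 of 13 in *Epb4.2*, 24 of 24 at *Ermap* start 1 and 29 of 33 at *Ank1* start 2 had every E14.5 library below every E10.5 library. These windows were named for their fall. In *Epor* it was 11 of 42, and at *Ank1* starts 1, 3, 4, 5 and 6 it was 0 of 172, 3 of 87, 2 of 23, 0 of 24 and 3 of 43. The share over all CpGs of the genome was not computed. The 9 CpGs of the *Ank1* stretch went from between 37.8% and 86.8% to between 2.95% and 13.8%. In *Epor*, whose window mean was low throughout, the CpGs at 236, 304, 374 and 398 bases downstream of the start stood out in the embryo, at 29.4%, 28.2%, 38.9% and 52.6%. They were at 6.82%, 5.26%, 6.27% and 12.6% in E14.5 liver. The CpGs named in the sequence stretches rested on between 10 and 74 reads a library, so a single percentage in 1 library is coarse.

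**Figure D2:**
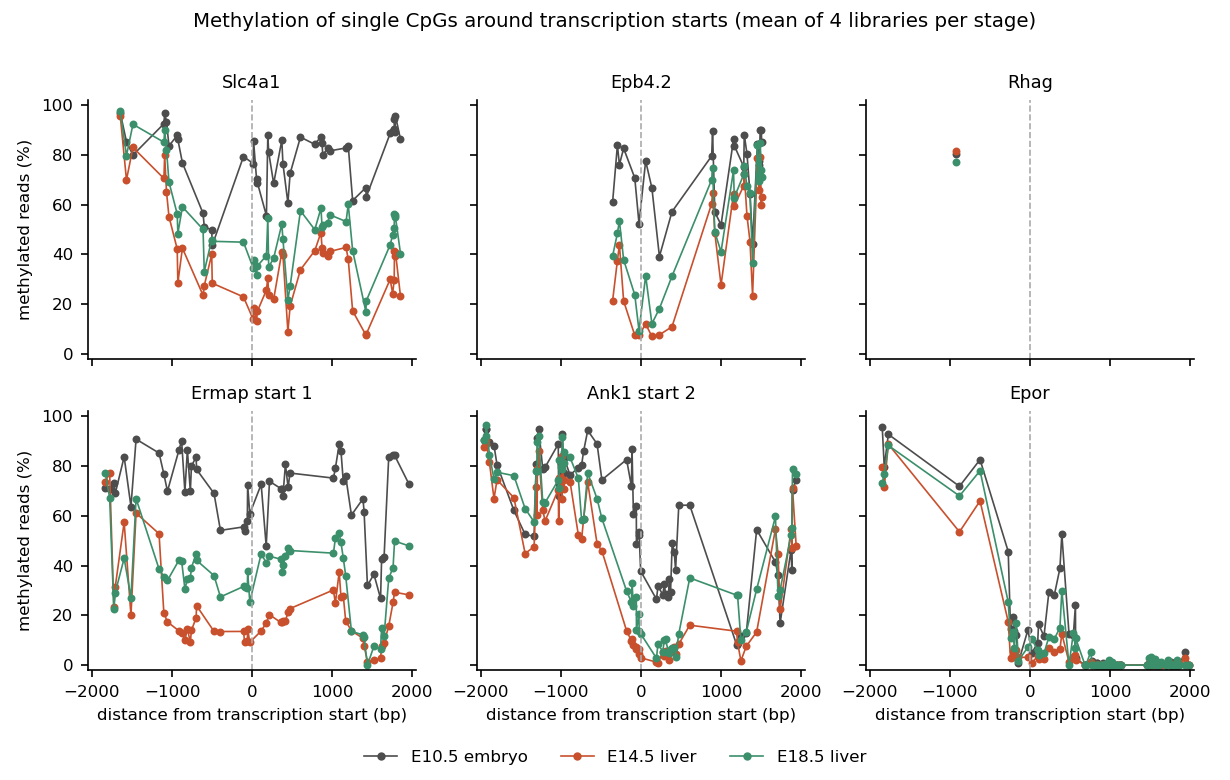
Methylation of single CpGs (y axis, mean of 4 libraries) against distance from the transcription start (x axis, bp, negative upstream) at E10.5 (embryo), E14.5 and E18.5 (both liver). In Slc4a1, Epb4.2, Ermap and Ank1 start 2 the E14.5 curve dips around the start and the E18.5 curve lies between the others at most CpGs, while Epor beyond 688 bp downstream of its start is near 0% at all stages and Rhag has 1 CpG that passed.

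The gene bodies, taken as the whole gene without the 1 kb around its starts, changed less than the 5 windows that fell most, and *Epor* went the other way. Between E10.5 and E14.5 all 6 bodies differed, 5 lower and *Epor* higher, where 96.6% of 18719 bodies differed, 93.4% lower and 3.20% higher. The 5 that fell did so by 5.77 to 11.4 points, less than the median fall of 13.9 points over all bodies. *Slc4a1* went from 80.4% ± 3.09 (SD, n = 4) to 69.0% ± 2.06, and *Rhag* from 81.8% ± 0.291 to 73.1% ± 2.87. *Epb4.2* gave 82.3% and 76.6%, *Ermap* 84.3% and 77.4%, and *Ank1* 81.2% and 74.1%. The *Epor* body was at 23.3%, 20.5%, 24.95% and 29.3% in E10.5 embryos, at 38.7%, 37.9%, 40.6% and 39.8% in E14.5 liver and at 41.3%, 39.4%, 42.4% and 39.4% in E18.5 liver. Its gain of 14.7 points (adjusted p = 4.57e-24) was above that of 99.6% of bodies, and no embryo library reached the liver values. As the mean of the CpGs' own percentages the gain was 8.59 points. Between E14.5 and E18.5, 2 of 6 bodies differed, both higher, against 75.9% of all bodies, 74.7% higher and 1.26% lower. These were *Slc4a1* by 4.68 points (adjusted p = 0.000487) and *Ank1* by 2.29 points (adjusted p = 0.0333). In *Slc4a1* the stages overlapped, at 67.5% to 71.9% in E14.5 and 70.9% to 77.1% in E18.5 livers. Its rise was not called in wild-type libraries alone, where 0 of 6 bodies were. The call of *Ank1* was lost when any of 9 libraries was left out and in 5 of 9 other settings.

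**Figure D3:**
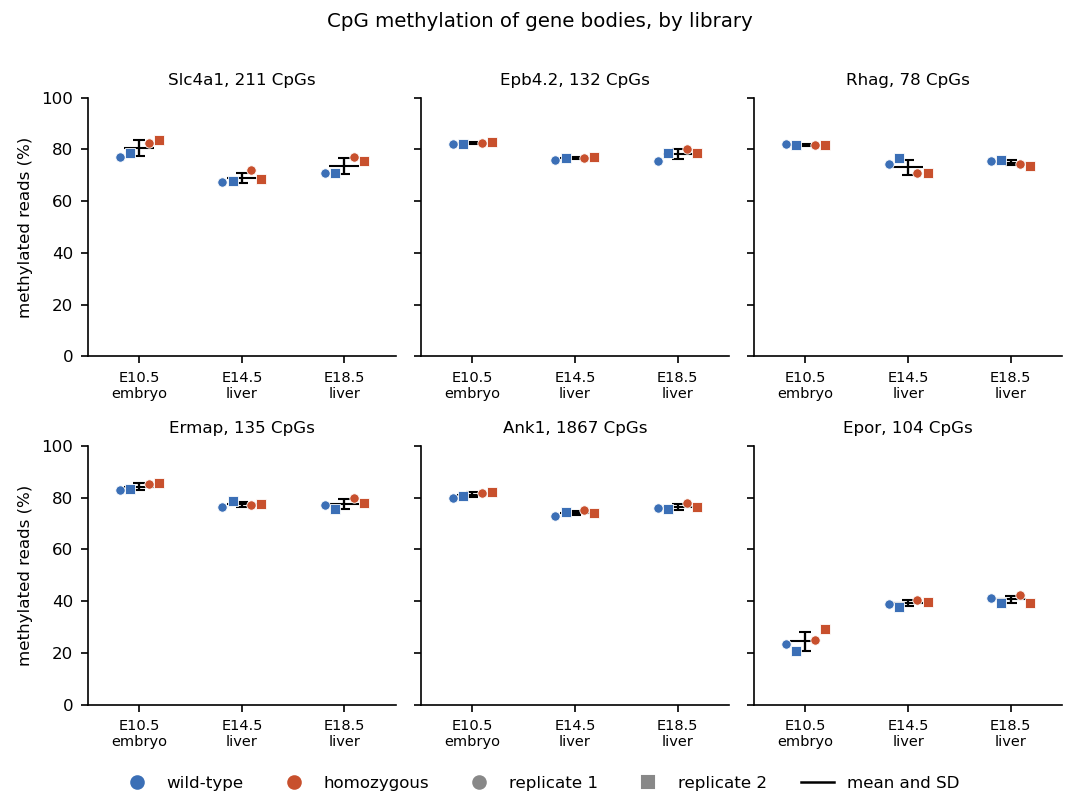
Percentage of methylated CpG reads (y axis) over the gene bodies of the 6 genes in each library, by stage (x axis), with genotypes coloured and the mean and SD of 4 libraries in black. Of the 6 bodies, 5 lie between 67.5% and 85.7% in every library and are lower in liver, while the Epor body rises from 20.5% to 29.3% in the embryo to 37.9% to 42.4% in liver.

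Fixed tiles of 1 kb showed where within and around the genes the changes lay. A tile counted as called when its difference exceeded 15 points with an adjusted p under 0.05. Of 292 tiles in the genes or within 10 kb of them, 83 were called between E10.5 and E14.5, 80 lower and 3 higher, which is a smaller share than the 61.4% called of 1001224 tiles in the genome, 60.5% lower and 0.942% higher. *Ank1* held 53 of the 83, *Slc4a1* 9, *Ermap* 8, *Epor* 6, *Epb4.2* 4 and *Rhag* 3. The tile with the deepest fall lay 385 bp upstream of *Ermap*, at chr4:118863001-118864000, where methylation went from 75.8% to 80.1% in the embryo to 15.2% to 18.49% in E14.5 liver. The difference was -61.3 points (adjusted p = 2.69e-25). The second lay in an *Ank1* intron at chr8:24164001-24165000, between starts 2 and 3, with 67.5% to 80% in the embryo, 10% to 20% in E14.5 liver and 29.7% to 36.9% in E18.5 liver. Of the 3 tiles called higher, 2 were in exons of *Epor*, the gene of the receptor, and 1 was in an *Ank1* intron. At chr9:21765001-21766000, over 34 CpGs, methylation rose from 8.24% to 18.6% in the embryo to 36.6% to 43.2% in E14.5 liver, a gain of 26.8 points. At chr9:21764001-21765000 the gain was 17.8 points. In the *Ank1* tile called higher it was also 17.8 points, from a mean of 62.5% to 80.3%.

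In *Rhag*, whose start has too few CpGs, the tile with the deepest fall lay 4075 bp upstream, at chr17:40943001-40944000, and was picked after its values were seen. Over 5 CpGs it went from 51.4% to 67.5% in the embryo to 2.99% to 6.90% in E14.5 liver, and stayed at 4.39% to 12.5% in E18.5 liver (difference from E14.5 of 3.95 points, adjusted p = 0.0608). Between E14.5 and E18.5, 5 of the 292 tiles were called, all higher, against 1.34% of all tiles and 1.31% higher. *Ermap* held 3, *Slc4a1* 1 and *Ank1* 1. The largest covered the *Ermap* start, at chr4:118862001-118863000, with a gain of 22.04 points. The second lay 385 bp upstream of *Ermap*, at chr4:118863001-118864000, with a gain of 20.7 points (adjusted p = 1.20e-07).

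Loss of Rlf was next compared with wild-type at each stage, since the study asked what its absence does to methylation. At the 11 starts that could be tested, none of them of *Rhag*, no difference passed. By edgeR 0 of 11 windows were called at E10.5, E14.5 or E18.5, where 0.681%, 0.118% and 0.228% of all windows were, and limma called 0 as well. At an unadjusted p under 0.05 edgeR gave 2 of 11 windows at E10.5, 1 at E14.5 and 0 at E18.5, where 12.8%, 8.59% and 9.39% of all windows lay under it. These were *Slc4a1* at E10.5, higher by 7.04 points in homozygous embryos (adjusted p = 0.355), *Ank1* start 4 at E10.5, higher by 5.85 points (adjusted p = 0.324), and *Ank1* start 1 at E14.5, higher by 0.93 points (adjusted p = 0.462). Across the 11 windows the median difference was 1.57 points at E10.5, 1.16 at E14.5 and 0.72 at E18.5. The change of the genotype difference from stage to stage was called in 0 of 11 windows for both steps, by edgeR and limma, none at an unadjusted p under 0.05, and in 0 windows of the genome. With 2 libraries a genotype the replicate spread limits what could be seen. The labels do not say which animal each library came from, so p-values measure the spread between samples as labelled.

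Over the gene bodies 1 of 6 was called at E10.5, 0 at E14.5 and 0 at E18.5, against 2.68%, 1.1% and 0.876% of all bodies. The body of *Slc4a1* stood at 76.9% and 78.7% in wild-type and at 82.5% and 83.5% in homozygous E10.5 embryos, without overlap. How often 2 libraries separate from 2 in this way over all bodies, here and for *Epor* below, was not computed. The difference was 5.16 points (log2 odds ratio 0.47, SE 0.13, adjusted p = 0.0164). It was no longer called by limma (adjusted p = 0.0776) or with replicate numbers as a block. The call was also lost when any 1 of the 4 E10.5 libraries was left out, with differences of 4.27 to 6.04 points. At E14.5 the difference in the same body was 2.73 points (adjusted p = 0.744) and at E18.5 it was 5.28 points (adjusted p = 0.136), both with the homozygous libraries on the higher side. Without homozygous replicate 2 the E18.5 difference was called (6.13 points, adjusted p = 0.00183), in a fit that called 8896 of 18719 bodies in place of 164. Over all CpGs the homozygous libraries were also higher at E10.5, at 73.3% and 74.0% of reads against 70.7% and 72.0%, and the median difference over all bodies was 1.03 points. At E18.5 homozygous replicate 1 was the highest library, at 65.5% against 61.4% to 61.7% in the others. The part of these library-wide levels in the *Slc4a1* values was not tested. At an unadjusted p under 0.05 edgeR gave 2 of 6 bodies at E10.5, 1 at E14.5 and 1 at E18.5, where 12.9%, 6.03% and 13.3% of all bodies lay under it. They were *Slc4a1* and *Epor* at E10.5, *Rhag* at E14.5 and *Slc4a1* at E18.5, and limma called 0 at E14.5 and E18.5. The *Epor* body was higher by 5.23 points in homozygous E10.5 embryos, without overlap between the genotypes, a difference that did not pass (adjusted p = 0.115) and was above that of 95.9% of bodies. It was called in 1 of 8 other settings, a separate fit for the stage (adjusted p = 0.0276), and without either homozygous E18.5 library (adjusted p = 0.0108 and 0.0109). The *Rhag* body was lower in homozygous E14.5 livers, at 70.9% and 70.7% against 74.3% and 76.6% in wild-type, a difference of -4.68 points that did not pass (adjusted p = 0.526) and was below that of all but 0.331% of bodies. The change of the genotype difference between stages was called in 0 of 6 bodies at both steps, by edgeR and limma, with none at an unadjusted p under 0.05, against 0.0321% and 0.00534% of bodies.

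Among the tiles 0 of 292 were called by genotype at E10.5, 1 at E14.5 and 0 at E18.5, where 0.216%, 0.0797% and 0.113% of all tiles were, and 0.0023% were called lower at E14.5. At an unadjusted p under 0.05 edgeR gave 39, 20 and 23 of the 292, where 9.01%, 5.86% and 9.22% of all tiles lay under it. The called tile was in an intron of *Rhag*, the Rh-associated glycoprotein gene, at chr17:40961001-40962000. It held 7 CpGs and was at 56.5% and 65.9% in wild-type and at 38.2% and 38.3% in homozygous E14.5 livers. The homozygous livers were thus lower by 22.9 points (log2 odds ratio -1.35, SE 0.27, adjusted p = 0.00727), in a genome where 775 of the 798 called tiles were higher. All 7 CpGs were lower in the homozygous mean, by 4.93 to 34.4 points. Over all 12 libraries, of which those of E14.5 held the most CpG reads, the read depth of these CpGs was 7 to 63. At E10.5 the tile stood at 75.9% and 69.2% in wild-type and 50.5% and 69.0% in homozygous embryos (adjusted p = 0.488). At E18.5 it was at 63.0% and 54.3% against 46.7% and 50.5% (adjusted p = 0.618). At E14.5 the tile remained called without wild-type replicate 1 (adjusted p = 0.0261). It was not called without wild-type replicate 2 (-18.3 points, adjusted p = 0.360), homozygous replicate 1 (-22.9 points, adjusted p = 0.185) or homozygous replicate 2 (-22.97 points, adjusted p = 0.133). In these fits the single library left in a genotype is assumed to vary like the others.

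**Figure D4:**
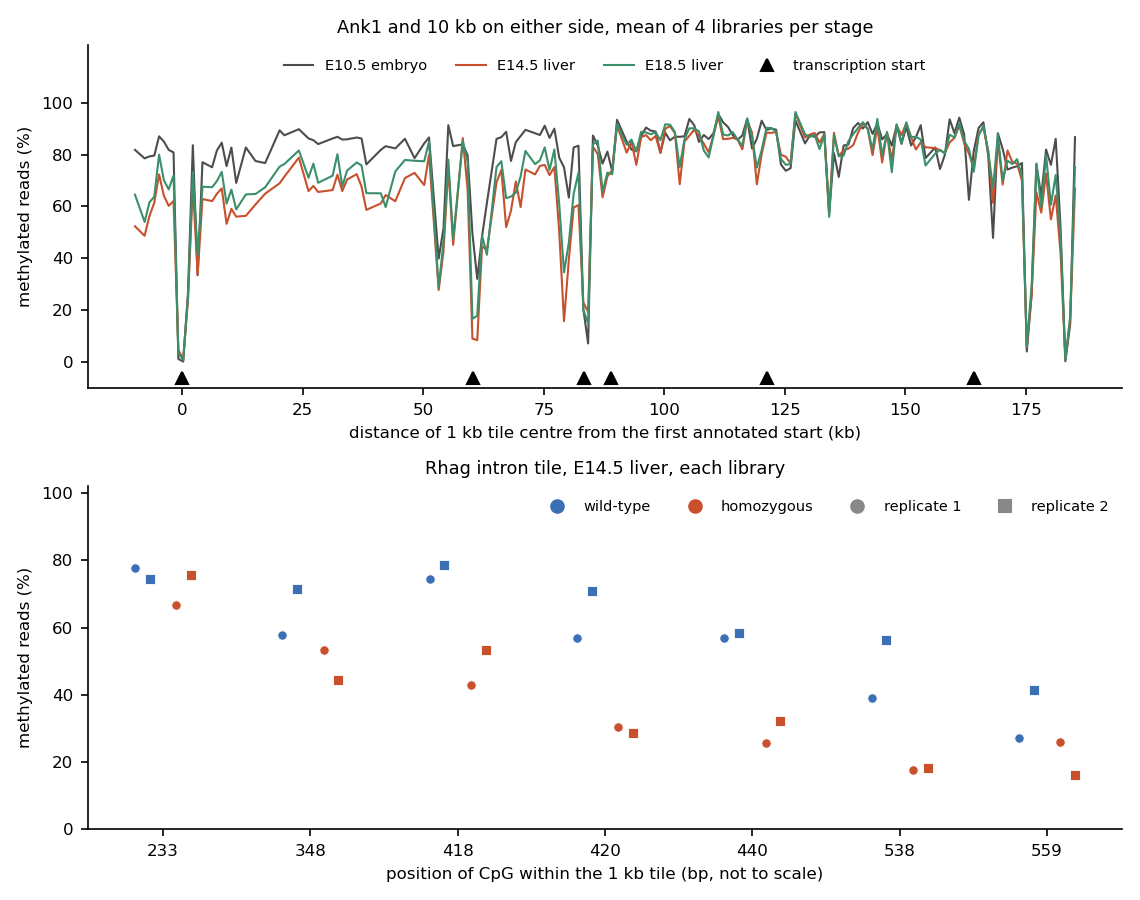
Top, methylation of 1 kb tiles along Ank1 and 10 kb to either side (y axis, mean of 4 libraries per stage) against distance from its first start (x axis, kb), with triangles at the 6 starts and dips at E14.5 near start 2 and in the intron before start 3. Bottom, methylation of each of the 7 CpGs of the Rhag intron tile (x axis, position in the tile) in the 4 E14.5 liver libraries, where the homozygous mean is below the wild-type mean at all 7.

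The RNA of all 6 genes was abundant in E14.5 liver and no difference by genotype passed the test. Libraries held 12928313 to 14621004 counts. In wild-type liver, per length, *Slc4a1* had 1044 RPKM (counts scaled by library size and by exon length in kilobases). It was followed by *Rhag* at 247, *Ermap* at 176, *Epor* at 92.6, *Epb4.2* at 90.2 and *Ank1* at 52.5 RPKM. By its mean RPKM over both genotypes *Slc4a1* ranked 26 among the 14162 tested genes with an exon length. *Slc4a1*, *Rhag* and *Ermap* did not overlap one another, whereas *Epor* (84.6 to 107 RPKM) and *Epb4.2* (73.2 to 106 RPKM) did over the 3 wild-type libraries. The transcript of *Rlf* itself was at 67.6 to 79.8 CPM (counts divided by the effective library size in megacounts) in all 6 libraries (log2 fold change 0.08, adjusted p = 0.646), so the RNA level does not separate the genotypes of this ENU allele.

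By the quasi-likelihood test of edgeR, with p-values adjusted by Benjamini and Hochberg, 0 of 6 genes were called between homozygous and wild-type livers, where 1.39% of 14183 genes were. None reached an unadjusted p under 0.05 by edgeR or DESeq2, while 14.6% of all genes did so by edgeR. *Slc4a1* was at 5811, 4324 and 5183 CPM in wild-type replicates 1 to 3 and at 5230, 4210 and 4977 CPM in homozygous ones. *Epb4.2* was at 573.5, 396.3 and 496.7 CPM against 436.4, 381.7 and 466.1 CPM. *Epor* was at 197, 157 and 155 CPM against 171, 155 and 141 CPM. The ranges of the genotypes overlapped for each of these genes. *Rhag* ranged from 500.5 to 631 CPM in wild-type and from 530.2 to 557 in homozygous livers, *Ermap* from 819 to 1054 and from 764 to 949, and *Ank1* from 624 to 797 and from 604 to 786. The fitted log2 fold change was -0.09 in *Slc4a1* (95% interval -0.32 to 0.14, adjusted p = 0.752) and -0.19 in *Epb4.2* (-0.45 to 0.06, adjusted p = 0.487). It was -0.12 in *Epor*, -0.09 in *Ermap*, -0.08 in *Rhag* and -0.03 in *Ank1*, with adjusted p from 0.638 to 0.938.

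All 6 fold changes were below 0, as were those of 7172 of 14183 tested genes. Between libraries of the same replicate number, the homozygous one was lower in 3 of 3 pairs for *Slc4a1*, *Epb4.2*, *Ermap*, *Ank1* and *Epor* and in 2 of 3 for *Rhag*. The labels do not pair these libraries, and the share of all genes lower in 3 of 3 was not computed. In the fit without pairs the sign depended on single libraries. Without wild-type replicate 1, which had the highest value of all 6 libraries for every gene of the set, 2 of 6 were below 0, and *Ank1* was also above 0 without homozygous replicate 2. With replicate numbers as a block, 460 genes were called in place of 197, with no member among them (lowest adjusted p = 0.200), and all 6 fold changes stayed below 0. In bulk tissue fewer cells of a type and less RNA per cell cannot be told apart. Over the 6 libraries the log2 CPM of *Slc4a1*, *Epb4.2*, *Rhag*, *Ermap* and *Ank1* went together, with Pearson's r from 0.776 to 0.987 between pairs, and *Epor* followed less closely, at 0.551 to 0.644. These points share libraries and therefore cell composition and depth. The 5 tested genes closest to the mean of the set were *Fam53b* (r = 0.998), *Clic4* (0.996), *Pcyt1a* (0.993), *2310028H24Rik* (0.992) and *Capn1* (0.990), each over 6 libraries.

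**Figure D5:**
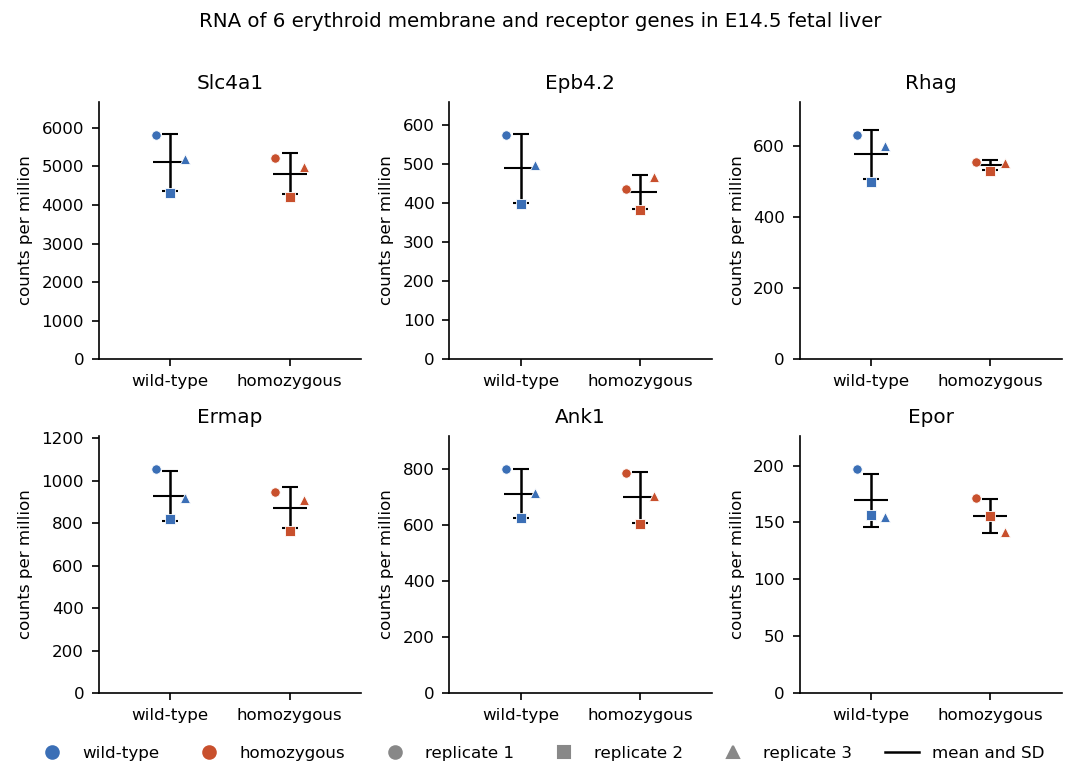
RNA level in CPM (y axis, from 0) of the 6 genes in each E14.5 liver library, by genotype (x axis), with symbols for replicate numbers and the mean and SD of 3 libraries in black. The genotypes overlap in all 6 panels, and wild-type replicate 1 is the highest of the wild-type libraries in each.

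Other genes of the red cell membrane and skeleton also showed no call. Of 29 listed, 27 were tested and 0 were called by edgeR, with 1 at an unadjusted p under 0.05 (*Slc14a1*, named after its value was seen) and 0 called by DESeq2. Their median log2 fold change was -0.05, with 23 of 27 below 0 and 12 of 27 without wild-type replicate 1. The median over all genes was -0.002. Among the most abundant per length were *Bsg*, the basigin gene (log2 fold change -0.01, adjusted p = 0.961 by edgeR), and *Rhd*, of the Rh complex (log2 fold change -0.17, adjusted p = 0.533 by edgeR).

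Of 25 genes of erythropoietin signalling, all tested, 2 rose and 1 fell by edgeR, and 5 lay at an unadjusted p under 0.05, where 1.39% of all genes were called and 14.6% lay under that p. *Trfr2*, the transferrin receptor 2 gene, whose product associates with the erythropoietin receptor, was at 100.1, 108 and 100.1 CPM in wild-type and 75.8, 63.2 and 62.9 CPM in homozygous livers. It fell by 0.61 on the log2 scale (SE 0.08, adjusted p = 0.00266), and stayed called whichever single library was left out. *Egr1*, an immediate early gene, was at 22.2, 31.0 and 30.6 against 68.6, 72.6 and 35.3 CPM (log2 fold change 1.07, adjusted p = 0.0370). *Fam132b*, which encodes erythroferrone, a hormone that erythroblasts release under erythropoietin, was at 11.1, 13.02 and 13.7 against 19.01, 23.7 and 16.8 CPM (log2 fold change 0.65, adjusted p = 0.0421). In these 3 genes, named because they were called, the genotypes did not overlap. The share of all genes without overlap was not computed. The calls of *Egr1* and *Fam132b* held only when 2 and 1 of the 6 libraries were left out in turn. DESeq2 called *Trfr2* and *Fam132b* but not *Egr1* (adjusted p = 0.0876), and it called *Cish*, named after its value was seen, a feedback inhibitor of cytokine signalling, which edgeR did not (log2 fold change 0.57, adjusted p = 0.0183 by DESeq2 and 0.0800 by edgeR). The most abundant were *Tfrc* (log2 fold change 0.03, adjusted p = 0.945), *Pim1* (0.12, adjusted p = 0.514) and *Bcl2l1* (-0.09, adjusted p = 0.797).

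Markers of the cells of the liver were read beside these values. Of 15 tested markers of erythroid transcription and haem synthesis 0 were called by edgeR (1 at an unadjusted p under 0.05, *Klf1*, named after its value was seen, and 0 called by DESeq2), 14 were below 0 with a median log2 fold change of -0.13, and without wild-type replicate 1, 8 were, with a median of -0.0088. Their summed level was 31101 to 56325 CPM in wild-type and 38534 to 41171 CPM in homozygous livers. Of 10 hepatoblast markers 1 rose by both tools, the transferrin gene *Trf* (log2 fold change 0.46, adjusted p = 0.0289), and the sum was 56439 to 67082 CPM in wild-type and 69260 to 80302 CPM in homozygous livers. Of 7 megakaryocyte markers *Pf4* rose (0.40, adjusted p = 0.0143), with sums of 508 to 537 and 610 to 680 CPM. DESeq2 also called *Itga2b* and *Gp1ba*, both named after their values were seen, as higher in homozygous livers (adjusted p = 0.0345 and 0.0448), which edgeR did not (adjusted p = 0.0687 and 0.0978). Of 6 neutrophil markers 4 fell, *S100a8*, *S100a9*, *Ngp* and *Elane*, by 0.67, 0.69, 0.93 and 0.76 on the log2 scale (adjusted p = 0.0143 to 0.0493), with sums of 772 to 1121 and 648 to 760 CPM. DESeq2 called *S100a8* and *Ngp* but not *S100a9* or *Elane* (adjusted p = 0.129 and 0.144), and *Elane* was also lost with DESeq2's size factors in edgeR (adjusted p = 0.0502). The edgeR calls of *Trf*, *Pf4* and these 4 neutrophil genes held when 1 to 4 of the 6 libraries were left out in turn. By edgeR and DESeq2 none of 8 macrophage, 6 endothelial and 6 mesenchymal markers was called, with 3, 4 and 1 at an unadjusted p under 0.05. Under that p lay 3 of 10 hepatoblast, 6 of 7 megakaryocyte and 4 of 6 neutrophil markers, where 14.6% of all genes did, and no neuronal marker had enough counts to be tested. All 6 endothelial markers were above 0, with sums of 268 to 295 CPM in wild-type and 297 to 347 CPM in homozygous livers. The hepatoblast, megakaryocyte, neutrophil and endothelial sums did not overlap between genotypes of 3 libraries each, whereas the erythroid, macrophage and mesenchymal sums did. How often sums of other genes separate in this way was not computed, and a sum mainly follows its most abundant genes. The part of these cell types in the values of the erythroid genes was not tested.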

How the data were processed

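According to the study's methods, WGBS libraries were made from genomic DNA with a lambda spike-in, bisulphite converted and sequenced as 100 bp pairs. The authors trimmed reads, mapped them with Bismark and Bowtie2 to mm9 carrying FVB variants, removed PCR duplicates and merged both strands. The deposited files hold, for each CpG, counts of methylated and unmethylated reads and the methylated percent that the authors derived from them and rounded, not used here. RNA-seq was poly-A selected and single-end, mapped with TopHat, and the deposited values are unstranded HTSeq counts per Ensembl gene, so overlapping antisense genes cannot be told apart. Tool versions are not given here. H3K4me1 ChIP-seq samples of the series were not analysed here.

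Methylation was computed from those counts at CpGs covered by 6 or more reads in each of the 12 libraries, in windows with at least 5 such CpGs, on chromosomes 1 to 19 and X. There were 13032403 such CpGs. Starts and genes came from GENCODE vM1 on NCBIM37, which is mm9. Sequences were read from that assembly. Methylated and unmethylated counts were fitted with edgeR 4.0.16 (quasi-likelihood, R 4.3.3), with 1 intercept per library and 1 coefficient per stage and genotype, and p-values were adjusted over all windows by the Benjamini-Hochberg method. For tiles the dispersion came from a fixed subset of 20000 tiles. RNA counts were scaled by TMM, filtered by filterByExpr and fitted with edgeR on the 6 libraries. Alternatives used limma 3.58.1, with a pseudocount of 1, and DESeq2 1.42.0. The RNA and methylation fits were tested on simulated data with known changes.

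The genes named were the 6 members, *Rlf*, called genes of the fixed lists with some of the most abundant of the membrane and erythropoietin lists, the 5 most similar genes, and the 2 largest tiles in each direction and contrast. Genes and tiles marked as named or picked after their values were seen were added to these. Members and lists were chosen with earlier results of these data known. For RNA-seq the labels state no pairing of samples. Deviations from the group means of libraries with the same replicate number correlated at 0.125, 0.226 and 0.409 over 14183 genes. Replicate number also goes with sex, and libraries of different number were not compared, so a pairing was not established. The planned fit without the block was kept as the reported one. Depth was 12928313 to 14621004 counts per RNA library, and counting error at single CpGs is wide at these read numbers.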

Additional observations from a re-analysis of the deposited data

Results flagged for a closer look

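A library stood apart from the other 3 of its stage in 2 of 51 stage groups examined, by the gap to its nearest neighbour relative to the range (Dixon's test at the 95% level), a rate that chance alone gives in about 1 of 20 groups. At the start of *Epb4.2*, the protein 4.2 gene, wild-type replicate 1 was at 17.6% in E14.5 liver, where the other 3 libraries were at 24.7% to 26.1%. At *Ank1* start 5, wild-type replicate 2 was at 86.8% in E18.5 liver, where the others were at 92.0% to 92.5%.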

How the results depend on the processing

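The falls at the starts of *Slc4a1*, *Epb4.2*, *Ermap* and *Ank1* start 2 between E10.5 and E14.5, and the changes of all 6 gene bodies at that step, kept direction and call in every alternative and without each library in turn. The cause of the changes below was not tested, beyond fewer samples or windows where the alternative itself makes them so.

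For RNA, 532 genes were called with no filter on low counts, 460 with the replicate block and 66 to 224 with 1 library left out. The fold changes then ranged from -0.20 to 0.016 for *Slc4a1*, -0.18 to 0.0077 for *Ermap*, -0.12 to 0.067 for *Ank1* and -0.19 to 0.0022 for *Epor*.

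For genotype at start windows (E10.5, E14.5, E18.5), limma called 110, 5 and 1 windows, windows of 500 bp to either side 62, 9 and 17, a separate fit for each stage 317, 0 and 111, and autosomes only, an alternative chosen after seeing the data, 575, 310 and 194, with 4 windows for the first change between stages. Windows of 2 kb gave 364 and 111 at the first 2 stages and 2 for that change, and a minimum of 10 reads gave 53 at E14.5. With 1 library left out the counts were 7 to 185, 3 to 32 and 0 to 54, lowest without wild-type replicate 1 at E10.5. Between E14.5 and E18.5, limma called 2440 windows, 500 bp windows 1084, 2 kb windows 10096, wild-type libraries alone 64 (2 members) and homozygous libraries alone 121 (2 members), and leaving out 1 library 1087 to 5507. *Ank1* start 6 turned to 0.49 points in wild-type alone between E10.5 and E14.5, start 4 to 2.52 points within 500 bp, and start 4 to 1.22 points within 2 kb between E14.5 and E18.5. With 1 library left out the last step ranged from -1.71 to 1.35 points at start 4 and from -2.01 to 0.10 points at start 6.

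For gene bodies, limma called 282, 54 and 82 by genotype with no member at E10.5 (0), 1 member between E14.5 and E18.5, and 1 and 0 bodies for the changes between stages. A separate fit gave 2773 bodies with 3 members at E10.5 and 66 at E18.5. A minimum of 1 read, and E14.5 counts thinned to the depth of the other stages, each gave 3 and 0 for the changes between stages. Wild-type libraries alone gave 9058 bodies and 0 members between E14.5 and E18.5, and homozygous alone 1 member. The *Ermap* body turned to -1.24 points in wild-type alone and -0.017 points after thinning, and rose by 3.59 points when the whole gene was taken (adjusted p = 0.0281), against 0.17 points without the 1 kb around its starts. With 1 library left out, genotype counts were 111 to 1732, 108 to 446 and 56 to 8896, the last without homozygous replicate 2 of E18.5, with 0 to 2 members at E10.5 and 0 to 1 at E18.5. Changes between stages then gave 1 to 27 and 0 to 11 bodies, and the last stage step 1 to 3 members, with the *Ermap* body at -0.40 to 0.75 points.

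For tiles, a minimum of 10 points called 127 and 22 member tiles at the 2 stage steps and 128874 of all tiles at the second. A minimum of 20 points called 940, 296 and 542 by genotype, 386480 and 1330 by stage, and 46 and 2 member tiles. Tiles of 2 kb called 1190, 435 and 734 by genotype, 8732 at the second stage step, and 49 and 1 member tiles. At E14.5, leaving out 1 library (added after seeing the data) called 241 to 530 tiles by genotype and 0 to 1 member tile.

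A pairing of WGBS samples by replicate number was not established. Over autosomes the correlations of deviations were -0.010 to 0.078 at starts and -0.023 to 0.046 in bodies. With replicate numbers as a block, start windows gave 738, 413 and 255 calls by genotype and 7 and 2 for the changes between stages, with 8 and 5 member windows at the 2 stage steps in place of 9 and 7. *Ank1* start 4 was not called at the first (adjusted p = 0.409), nor *Ank1* start 1 (adjusted p = 0.127) and *Epor* (adjusted p = 0.0626) at the second. Gene bodies gave 0 members at E10.5, 1 member between E14.5 and E18.5, and 3 for the first change between stages.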
